A study of Mus musculus with 4 samples.

Results

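Stromal cells rich in Cxcl12 were picked out of unsorted bone marrow of myeloma-bearing mice, measured cell by cell. Of 39743 kept cells in 4 libraries, 87 (0.219%) met the gate. The gate was set on unique molecular identifiers (UMIs, each a captured RNA molecule): at least 5 of Cxcl12, at least 2 over Lepr, Adipoq, Kitl, Col1a1 and Col1a2 together, and 0 of the endothelial genes Cdh5 and Kdr. Kept cells had at least 300 genes and at most 20% of UMIs from mitochondrial (mt-) genes, out of 41393 deposited barcodes.

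All 4 libraries came from the 5TMM myeloma model, in which 6-week-old C57BL/KawRij mice received 5TGM1-luc myeloma cells by vein, and treatment followed 3 weeks later. Vehicle libraries 1 and 2 came from mice given the carrier, and PM libraries 1 and 2 from mice given purinostat mesylate (PM), an inhibitor of class I and IIb histone deacetylases, at 10 mg/kg for 24 h. No library came from a mouse without myeloma. Marrow was depleted of red cells and of nothing else, so each library is otherwise unsorted marrow.

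Cxcl12-abundant reticular (CAR) cells are a thin net of mesenchymal cells around the marrow sinusoids. They release CXCL12, which holds blood stem cells, B lineage cells and plasma cells in the marrow through the receptor CXCR4, and KITL (stem cell factor), which stem and progenitor cells need through KIT. They largely coincide with the leptin receptor-positive stroma, can give rise to fat and bone cells, and are kept in their state by the transcription factors Ebf3 and Foxc1. Myeloma cells home to the same net.

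The gated cells were few and shallow. Vehicle 1 held 14 of 9261 kept cells, vehicle 2 17 of 7826, PM 1 19 of 13387 and PM 2 37 of 9269. The median gated cell had 1297.5, 3838, 2114 and 1560 UMIs in that order, which was 21.4%, 72.0%, 44.8% and 32.5% of the median kept cell of its library. Summed over the gate, the libraries gave 31223, 64075, 92510 and 145162 UMIs out of 86052982, 69828595, 109447030 and 74388936 in the whole libraries. The median mitochondrial share was 3.20%, 7.07%, 6.71% and 2.28% in gated cells against 1.02%, 1.20%, 1.69% and 1.26% in kept cells, higher in the gated cells of all 4 libraries. No barcode was shared among gated cells of different libraries, 1 gated barcode was shared with a kept cell of another library, and 158 barcodes occurred in at least 2 libraries among all kept cells.

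Some gated barcodes carried RNA of blood cells as well as Cxcl12. In 20 of the 87, more than 2% of UMIs came from 53 marker genes of 7 blood lineages, and these were 1, 2, 6 and 11 cells in vehicle 1, vehicle 2, PM 1 and PM 2. They held 1.61%, 24.1%, 45.9% and 60.8% of the gated UMIs, since their median was 6462.5 UMIs with 14.5 Cxcl12 UMIs, against 1640 UMIs with 51 Cxcl12 UMIs in the other 67. In 11 cells over 20% of UMIs were from 10 neutrophil genes, up to 39.5%, and all 11 were in the PM libraries. Scrublet, a doublet caller, marked 4 of those 11 and 6 gated cells in all. The deepest cell of PM 2, with 32752 UMIs, held 407 of the 417 Mpo UMIs and 234 of the 237 Elane UMIs of its gate, both genes of early neutrophil precursors. Results are therefore given for all 87 cells and for the 67 cells with at most 2% blood-list UMIs, called low-blood cells here, of which vehicle 1 had 13, vehicle 2 15, PM 1 13 and PM 2 26.

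**Figure D1:**
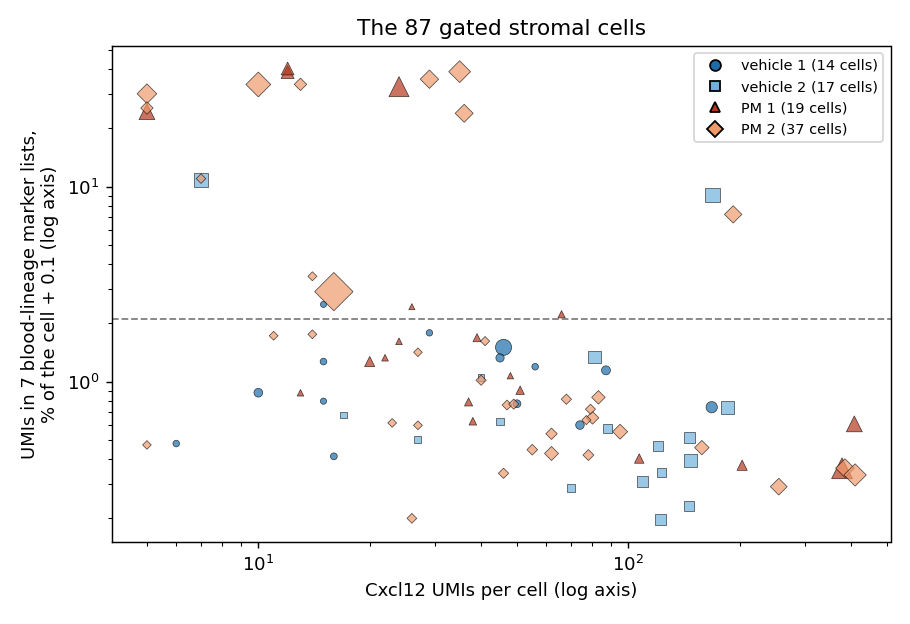
Each point is a gated cell, placed by its Cxcl12 UMIs (x axis, log scale) and its percent of UMIs from the blood-lineage marker genes plus 0.1 (y axis, log scale). Colour and marker shape give the library, marker size grows with the cell's UMIs, and a dashed line lies at 2%. The cells above the line number 1, 2, 6 and 11 from vehicle 1 to PM 2, and the points above 20% are all in the PM libraries.

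The genes of the gate are described only, since they chose the cells. Cxcl12, on chromosome 6, ran from 5 to 410 UMIs a cell with a median of 45. As CPM (UMIs of the gene per 1000000 UMIs of the summed cells), it came to 20241 in vehicle 1, 25626 in vehicle 2, 16571 in PM 1 and 18359 in PM 2, against 2.98, 2.99, 3.94 and 10.9 CPM in the other kept cells. In the low-blood cells it stood at 20084, 30147, 27737 and 40491 CPM. Kitl gave 52, 127, 64 and 156 UMIs, the leptin receptor gene Lepr 39, 109, 49 and 87, and the adipokine gene Adipoq 8, 43, 23 and 43. Of the 87 cells, 71 had a Kitl UMI, 61 a Lepr UMI, 44 an Adipoq UMI, 70 a Col1a2 UMI and 39 a Col1a1 UMI. Without the collagens 74 cells still reached 2 UMIs, and 4 cells passed on collagen alone.

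Cells near the lower limits of the gate had less Igfbp4 and Igfbp5 than the gated sums, and only these genes were compared. The 7 members with 5 to 9 Cxcl12 UMIs had a median of 10.9% blood-list UMIs, with 474 CPM of Igfbp4 and 406 CPM of Igfbp5 over their sum. Just outside, the 10 cells with 3 or 4 Cxcl12 UMIs had 335 CPM of Igfbp4 and 175 CPM of Igfbp5, and the 24 cells with a support sum of 1 had 361 and 366 CPM. The 6 cells removed only by a Cdh5 or Kdr UMI had 4930 CPM of Igfbp4 and 1520 CPM of Igfbp5, so the endothelial gate took out some cells with high levels of both. In all, 145 kept cells had at least 5 Cxcl12 UMIs.

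The label was checked on 22 identity genes of CAR cells outside the gate, and the gated cells carried them. Their summed level was 33213, 40577, 17447 and 20660 CPM in vehicle 1, vehicle 2, PM 1 and PM 2, against 1037, 946, 976 and 970 CPM in the other kept cells. Against those cells, 21 of the 22 were called higher, with a median log2 difference of 8.76 (edgeR quasi-likelihood test with library as a block, Benjamini-Hochberg adjusted p under 0.05 and an absolute log2 difference over 0.5). Of all 14539 genes tested 16.2% were called, 8.51% higher and 7.66% lower, with a median log2 difference of -0.55. Since the cells were picked on RNA of the same cells, these calls describe the picked cells and are no test that the gate found a type. The exception was Hp (haptoglobin), at log2 0.90 with an adjusted p of 0.115, a gene that 95.4% of neutrophil-marker cells also showed.

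Igfbp5, which encodes an insulin-like growth factor binding protein and lies on chromosome 1, stood at 15149, 13219, 2908 and 3706 CPM. It was the most abundant of the identity genes in both vehicle libraries, and came after Igfbp4 in both PM libraries. The log2 difference from the other cells was 11.81 ± 0.61 (SE). An Igfbp5 UMI was found in 97.0% of the low-blood cells and in 0.479% of the 26707 neutrophil-marker cells (at least 50 S100a8 and S100a9 UMIs), although the latter had a median of 5329 UMIs against 1640. With each cell thinned to 1000 UMIs, which 46 low-blood cells and 1979 neutrophil-marker cells reached, the shares were 93.5% and 0.202%. Its relative Igfbp4, on chromosome 11, was high in the gated cells, at 3907, 4963, 3740 and 4657 CPM, but was far more widespread. Thinned shares were 91.3% and 3.18%, and the log2 difference from other cells was 4.56 ± 0.45.

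The transcription factors of the CAR state were present. Ebf3, needed to keep the niche open, stood at 737, 1170, 605 and 861 CPM and in 70.1% of low-blood cells, against 0.0861% of neutrophil-marker cells. Foxc1, which commits progenitors to this state, stood at 224, 749, 292 and 351 CPM. Of 20 tested transcription factor genes 14 were called higher than in other cells, among them Prrx1, Twist1, Runx2, Sp7, Pparg and Cebpa. Lower were 2, Cebpb and Klf4, beside 8.51% higher and 7.66% lower of all genes tested. Runx2 and Sp7 drive bone cells, and Pparg and Cebpa drive fat cells. Sp7 gave 0, 2, 3 and 17 UMIs (0, 31.2, 32.4 and 117 CPM), and Pparg, with 0, 0, 1 and 3 UMIs, sat near the limit of these sums. Ebf1, shared with B cells, was at 512, 531, 314 and 310 CPM.

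Among 1662 genes with at least 50 CPM in the gated cells of every library, the 15 with the highest ratio to other cells in their lowest library included Ltbp2, Serping1, Adamts2, Sfrp1, Tnc, Loxl1, Ism1, Pdgfra, Col6a2, Fbln5, Cyp1b1, Chrdl1, Dcn and Ebf3. Their lowest log2 ratio ran from 11.09 (Ebf3) to 11.92 (Ltbp2), with 3 UMIs set for the other cells where they had fewer. Several encode proteins outside the cell, a grouping that was not tested against the other genes. Ltbp2, Fbln5 and Loxl1 belong to elastic fibres, Tnc and Col6a2 to the matrix, and Dcn is a small proteoglycan. Sfrp1 and Chrdl1 bind and block WNT and BMP ligands. Serping1, the C1 inhibitor of complement, was at 1153, 1529, 497 and 565 CPM, and Tnc (tenascin C) at 609, 1842, 1503 and 1791 CPM. Pdgfra, a receptor that marks mesenchymal progenitors, was lower, at 288, 499, 141 and 145 CPM.

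**Figure D2:**
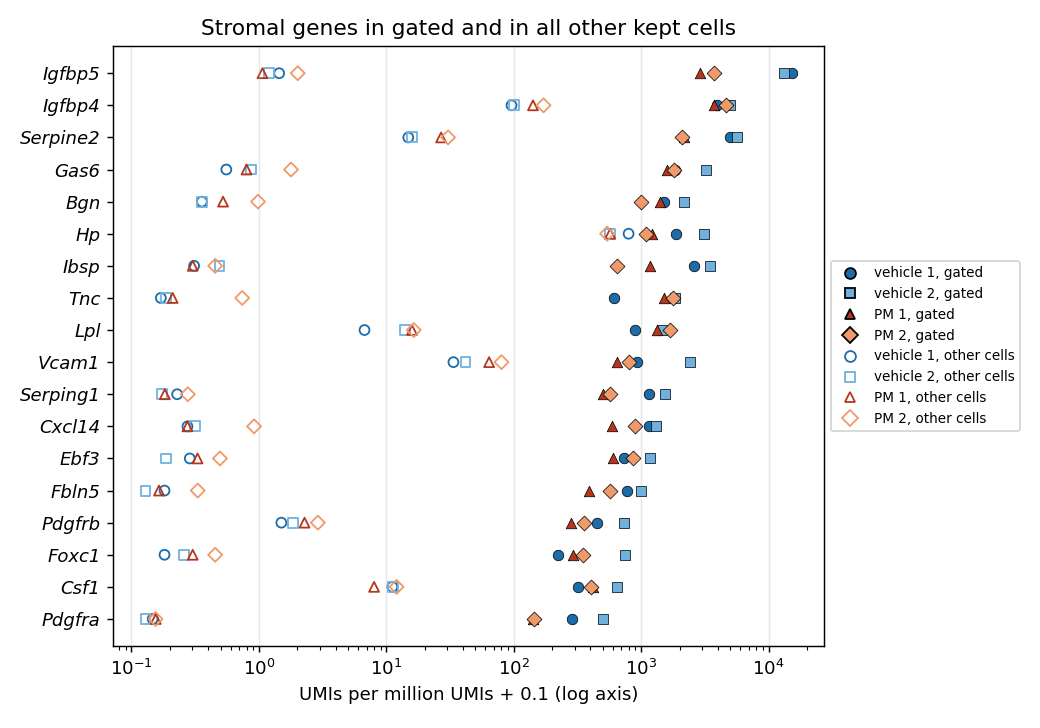
Level of 18 stromal genes outside the gate (x axis, CPM plus 0.1, log axis), with filled symbols for the gated cells and open symbols for all other kept cells of each of the 4 libraries. Filled and open symbols lie far apart for genes such as Igfbp5, Ebf3 and Pdgfra, closer for Igfbp4 and Vcam1, and closest for Hp.

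Among the niche ligand genes whose share was taken, the gated cells held much of the marrow's captured RNA for a few and little for most. Of 34 tested ligand genes outside the gate, 24 were called higher than in other cells and 2 lower, Tgfb1 and Inhba, with a median log2 difference of 4.75. Among all genes tested the shares were 8.51% higher and 7.66% lower. The share of each gene's kept UMIs that lay in the gated cells was taken for 19 of 40 ligand genes, those with at least 50 UMIs in every library, and for Cxcl12, Kitl, Igfbp4 and Igfbp5. That limit left out ligand genes scarce in other cells, such as Chrdl1, Il34 and Sfrp4. Their lowest log2 ratios to other cells (11.24, 10.94 and 10.33) were above that of Gas6 (10.07), so few and most apply to the genes measured. The gated cells held 0.0364%, 0.0926%, 0.0850% and 0.197% of all UMIs of the kept cells. For Cxcl12 they held 71.3%, 88.8%, 78.2% and 76.9%, and for Kitl 61.9%, 72.6%, 56.1% and 72.2%, both fixed in part by the gate.

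Genes outside the gate reached similar shares. The gated cells held 80.4% (exact 95% binomial interval 77.0 to 83.6), 91.8% (89.8 to 93.5), 71.9% (67.1 to 76.4) and 79.2% (76.0 to 82.2) of the Igfbp5 UMIs of the kept cells. For Cxcl14, a chemokine, the shares were 70.6%, 84.8%, 74.3% and 68.4%, and for Gas6, the ligand of the TYRO3, AXL and MERTK receptors, 59.4%, 79.7%, 65.9% and 68.0%. Shares in the middle were those of Mdk (midkine), at 6.61%, 15.8%, 10.1% and 23.1%, and Igf1, at 4.49%, 10.6%, 12.4% and 19.9%. Intervals cover counting error only.

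Csf1, Vcam1, Angpt1, Tgfb1 and Igfbp4 came mostly from other cells. Csf1, the macrophage growth factor, was enriched in the gated cells at log2 4.88, but they held 1.05%, 5.02%, 4.34% and 6.30% of its UMIs. For Vcam1, an adhesion molecule for blood cells, the shares were 1.00%, 5.10%, 0.856% and 1.95%, and macrophage-marker cells (at least 5 C1q UMIs) had 2401 CPM of it. Angpt1, a ligand of the TIE2 receptor, had shares of 0.301%, 0.687%, 1.39% and 1.68%, and Tgfb1 at most 0.134%. Igfbp4, despite its level in these cells, had 1.46%, 4.40%, 2.20% and 5.10%. Il7, which B cell precursors need, was seen in 11 gated cells at 32.0, 62.4, 54.1 and 34.4 CPM. It was called higher than in other cells, and its share was not taken. Il6, a growth factor of myeloma cells, had 0 UMIs in the gated cells of all 4 libraries. So had Lif, Thpo and Ccl19, for which no share was taken. A count of 0 in 332970 gated UMIs allows up to 9.01 CPM.

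**Figure D3:**
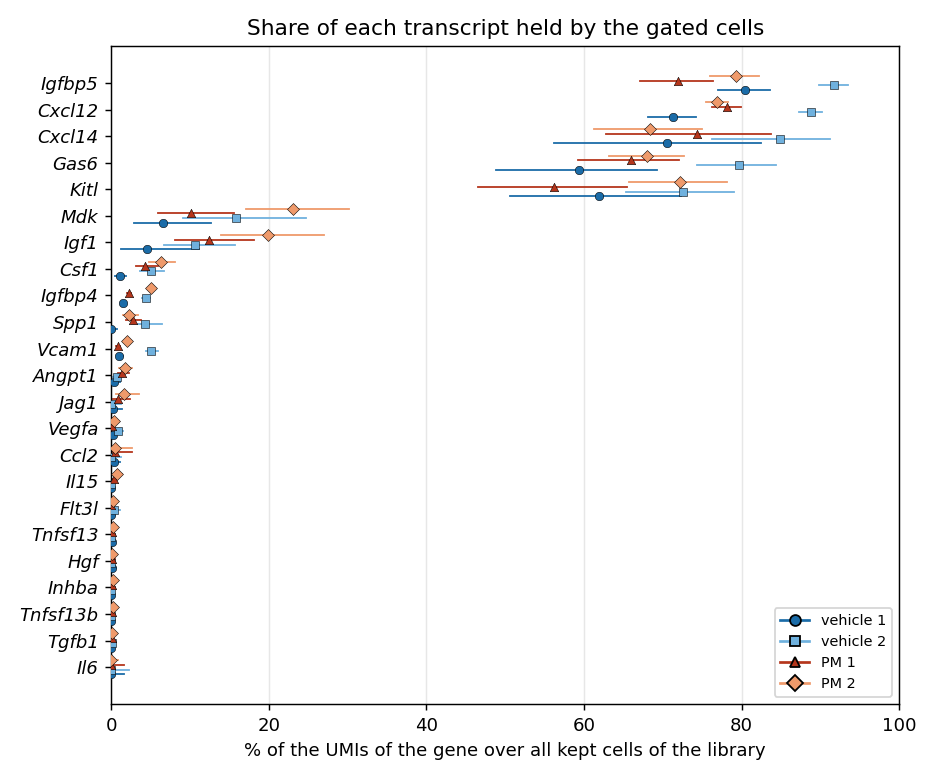
Percent of each ligand's UMIs among kept cells that lay in the gated cells (x axis), with a point for each library and exact 95% binomial intervals, and the ligands on the y axis. Cxcl12, Kitl, Cxcl14, Gas6 and Igfbp5 lie between 56.1% and 91.8%, and the remaining genes at or below 23.1%.

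Genes of the bone and the fat lineage were both found, while several genes of mature bone cells and of lipid droplets had 0 UMIs. Of 13 tested osteogenic genes 10 were called higher than in other cells, beside 8.51% of all genes tested. Ibsp (bone sialoprotein) stood at 2594, 3480, 1167 and 648 CPM, Sparc (osteonectin) at 897, 1342, 724 and 675 CPM, and Alpl (alkaline phosphatase) at 0, 15.6, 151 and 68.9 CPM. Bglap and Bglap2 (osteocalcin), made by mature osteoblasts, and Dmp1 and Sost, made by osteocytes, had 0 UMIs. Of 21 tested adipogenic genes 6 were called higher and 2 lower, beside 8.51% and 7.66% of all genes tested. Their median log2 difference was -0.03. Lpl (lipoprotein lipase) led at 897, 1467, 1340 and 1688 CPM, and Fabp4, a fatty acid binding protein, and Angptl4 were called higher at 13.8 to 97.3 and 0 to 78.0 CPM, while the lipid droplet genes Plin1 and Cidec had 0 UMIs.

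A bone and a fat gene were often detected in the same cell. Among the 67 low-blood cells 37 had both an Ibsp and an Lpl UMI, 15 had Ibsp only, 12 had Lpl only and 3 had neither. In the neutrophil-marker cells, which are deeper, 0.150% had an Ibsp UMI and 2.60% an Lpl UMI. Across these cells, which differ in depth and come from 4 libraries, Spearman's rho between the UMI shares was -0.28 for Ibsp and Lpl, 0.62 for Igfbp5 and Ibsp and -0.05 for Igfbp5 and Lpl.

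Matrix genes made up the broadest group. Of 41 tested genes 36 were called higher than in other cells and 1, Fn1 (fibronectin), lower, with a median log2 difference of 8.10. Of all genes tested 8.51% were higher and 7.66% lower. The matrix list summed to 15565, 21756, 10550 and 11780 CPM. Serpine2, a protease inhibitor, led it at 4964, 5618, 2184 and 2101 CPM, with Bgn (biglycan) at 1505, 2154, 1394 and 999 CPM. Of 11 insulin-like growth factor genes 8 were called higher, including Igfbp3, Igfbp7, Igf1, Igf2 and the IGFBP-cutting protease Pappa.

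Signal receptors outside the gate were called higher in 17 of 33 tested genes and lower in 0. They included Pdgfrb at 448, 733, 281 and 358 CPM, the leukaemia inhibitory factor receptor gene Lifr at 512, 421, 227 and 172 CPM, the interleukin 1 receptor gene Il1r1, the growth hormone receptor gene Ghr and the parathyroid hormone receptor gene Pth1r. Of 32 inflammatory genes 7 were called higher, among them the complement genes C4b (log2 difference 8.08), C1s1 (11.03), C1ra and Cfb. Of 66 interferon-linked genes 6 were called higher and 4 lower, shares near those of all genes tested (8.51% higher and 7.66% lower). Of 31 cell cycle genes 0 were called higher and 21 lower, and of 29 immediate early and heat shock genes 1 was called higher (Hspb1) and 14 lower.

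Markers of other cell types outside the blood were low in the gated sums but not absent. Endothelial genes outside the gate summed to 128, 93.6, 108 and 34.4 CPM, pericyte and muscle-type genes to 224, 172, 54.1 and 172 CPM, cartilage genes to 128, 78.0, 43.2 and 75.8 CPM, and genes of other fibroblasts to 0, 62.4, 130 and 82.7 CPM. Defining genes at 0 UMIs were Cd34 and Egfl7 (endothelium), Acan (cartilage), Dpt (fibroblasts), Sox10 (Schwann cells) and Pf4 (megakaryocytes). Some genes of these lists were nonetheless called higher than in the other kept cells, namely Emcn and Ramp2 (endothelium), Rgs5 and Tagln (pericytes and smooth muscle) and Comp (cartilage), on 3 to 23 UMIs over all gated cells. So were the macrophage complement genes C1qa, C1qb and C1qc, and C1qa had 4, 37, 2 and 3 UMIs. The macrophage and monocyte list summed to 480, 1810, 3524 and 3203 CPM, led by C1qa in the vehicle and by Lyz2 in the PM libraries, and to 488, 596, 320 and 176 CPM in the low-blood cells, and its part in the results was not tested. The neutrophil list summed to 4356, 13515, 141541 and 115609 CPM over all gated cells, led by S100a9, and to 4036, 2015, 3617 and 2954 CPM in the low-blood cells, which were chosen for few UMIs of these blood lists, against 169093 to 202698 CPM in other kept cells. The erythroid list summed to 4548, 10488, 465 and 358 CPM, and to 4622, 514, 520 and 580 CPM in the low-blood cells, where vehicle 1 alone was high, and 0 of its 3 tested genes were called with PM. In vehicle 1, 127 of the 142 erythroid UMIs lay in the deepest cell, which had 10714 UMIs (34.3% of that library's gated UMIs) and 1.40% blood-list UMIs, and so counts among the low-blood cells.

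The share of gated cells did not separate the groups. It was 0.151% (exact 95% binomial interval 0.0827 to 0.254) in vehicle 1, 0.217% (0.127 to 0.348) in vehicle 2, 0.142% (0.0855 to 0.222) in PM 1 and 0.399% (0.281 to 0.550) in PM 2. PM 1 was the lowest and PM 2 the highest of the 4. The mean was 0.184% ± 0.0467 (SD, n = 2) with vehicle and 0.271% ± 0.182 (SD, n = 2) with PM, higher with PM in 2 of 4 pairs of libraries (exact two-sided permutation test, p = 1, and 0.33 is the smallest that 2 against 2 libraries allow). Without PM 2 the difference turned to -0.0423 percentage points. Gated cells are those that survived dissociation and lysis, so the share is not a count of stromal cells in the marrow.

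PM against vehicle was then tested on the summed UMIs of each library. Over all 87 cells, 46 of 1464 genes were called higher (3.14%) and 18 lower (1.23%), 4.37% in all, by edgeR at a Benjamini-Hochberg adjusted p under 0.05 and an absolute log2 fold change over 0.5. In the 67 low-blood cells 0 of 783 were called by edgeR, 40 had an unadjusted p under 0.05, and DESeq2 also called 0. The counts moved with scaling, to 45 higher and 34 lower with library size only and to 59 and 37 with RLE scaling. Single libraries decided how many were called: 113 higher and 79 lower without vehicle 1, 122 and 31 without vehicle 2, 24 and 3 without PM 1, and 26 and 4 without PM 2. Of the 18 falls 0 kept the call without PM 1 and 1, Ccn5, without PM 2, and of the 46 rises 20 kept it in either case. DESeq2 shared 26 of the rises and 4 of the falls. Library size only moved the median log2 fold change of all genes from -0.02 to -0.20.

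Among the genes that rose were many of neutrophils and other myeloid cells. Of 9 tested genes of the neutrophil list 6 rose, of 3 of the macrophage and monocyte list Lyz2 and Ly6c2 rose and C1qa fell, and Nkg7, from the T and NK cell list, and Ier2, an immediate early gene, rose as well. All 46 had a higher level in the neutrophil-marker cells than in the low-blood cells, as had 35.5% of the genes tested. Several of the 46 are blood-list genes, for which the choice of the low-blood cells sets this outcome. The 46 were also picked from sums that hold the blood-rich cells, so this is not separate evidence. S100a8, a subunit of the neutrophil protein calprotectin, stood at 1249, 4698, 48492 and 38378 CPM in vehicle 1, vehicle 2, PM 1 and PM 2 (log2 fold change 3.95 ± 0.67 SE, adjusted p = 0.00378, edgeR). In the low-blood cells it was at 1172, 617, 959 and 809 CPM, but S100a8 is one of the blood-list genes whose UMIs removed the other cells, so this drop is set by the removal. The secondary granule genes Ngp (log2 fold change 5.86), Ltf (5.65), Camp (5.39) and Lcn2 (4.90) and Chil3 (4 vehicle UMIs against 669 with PM) rose in the same way. Ms4a3, Ly6g, Serpinb1a, Asprv1, Chil1, Adam8 and Arhgap15 had 0 UMIs in both vehicle libraries and 69, 57, 53, 42, 37, 35 and 32 with PM, at least 4.28-fold (Arhgap15) to at least 9.22-fold (Ms4a3) higher against 3 UMIs over the vehicle group. Rflnb had 1 and 64 UMIs and Wfdc21 7 and 377. Of the 55 Ms4a3 UMIs of PM 2, 47 lay in its deepest cell, and so did 27 of its 28 Nkg7 UMIs. Of the 46 rises 5 could be tested in the low-blood cells, and 0 were called there, but 4 of them (S100a8, S100a9, Camp and Ngp) are blood-list genes, and the fifth is S100a6 (log2 fold change 0.46).

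**Figure D4:**
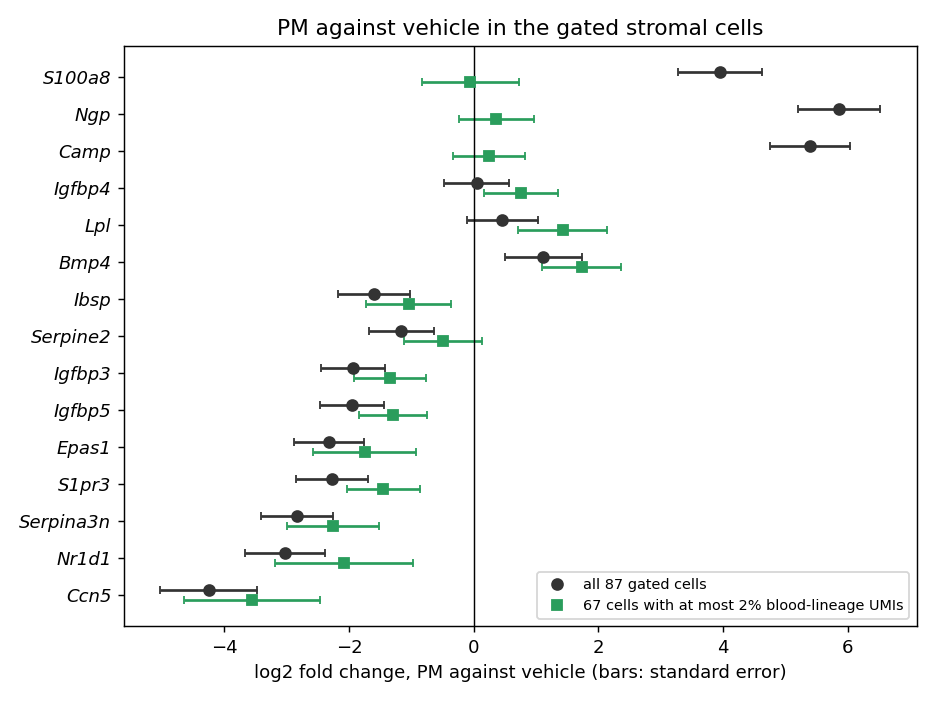
Log2 fold change of PM against vehicle (x axis, bars are standard errors of the edgeR fit) for 15 genes, as black circles over all 87 gated cells and green squares over the 67 low-blood cells. S100a8, Ngp and Camp lie at 3.95 to 5.86 over all gated cells and at -0.06 to 0.36 in the low-blood cells, which were chosen for few UMIs of these and other blood-list genes, and Igfbp5, Igfbp3, Epas1, S1pr3, Serpina3n, Nr1d1 and Ccn5 are negative in both.

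The genes that fell included stromal genes that were scarce in blood cells. Igfbp5 stood at 14184 ± 1365 CPM with vehicle and 3307 ± 565 CPM with PM (SD, n = 2 each). Both PM libraries lay below both vehicle libraries, as for 26.5% of all genes tested over all gated cells. Its log2 fold change was -1.95 ± 0.51 (SE, adjusted p = 0.0385, edgeR). In the low-blood cells Igfbp5 was at 15071, 16554, 4836 and 8756 CPM, again lower in both PM libraries, as for 13.2% of all genes tested there. It was not called there (log2 fold change -1.29 ± 0.55 SE, adjusted p = 0.753, edgeR). Igfbp5 was called in 9 of 16 alternatives. Among those that lost the call were the fits with either PM library left out, with no filter on low counts, with a gate of 3 Cxcl12 UMIs and without the Scrublet doublets (adjusted p = 0.0507, edgeR), and it was negative in 16 of 16 (log2 -2.15 to -1.29).

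Igfbp5 was also compared cell by cell. The median low-blood cell had 18.8 Igfbp5 UMIs per 1000 UMIs in vehicle 1, 16.1 in vehicle 2, 4.91 in PM 1 and 6.48 in PM 2. Its range was 1.77 to 80.2, 1.27 to 47.7, 0 to 12.5 and 0 to 39.2 per 1000, so single cells overlapped between the groups. Igfbp4 did not follow. Its medians in the same cells were 4.88, 5.44, 6.79 and 8.99 per 1000, higher in both PM libraries, and its log2 fold change was 0.05 over all gated cells (adjusted p = 0.978, edgeR) and 0.76 in the low-blood cells (adjusted p = 0.996, edgeR). Cxcl12 had medians of 26.0, 29.5, 25.0 and 39.6 per 1000 in these cells.

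**Figure D5:**
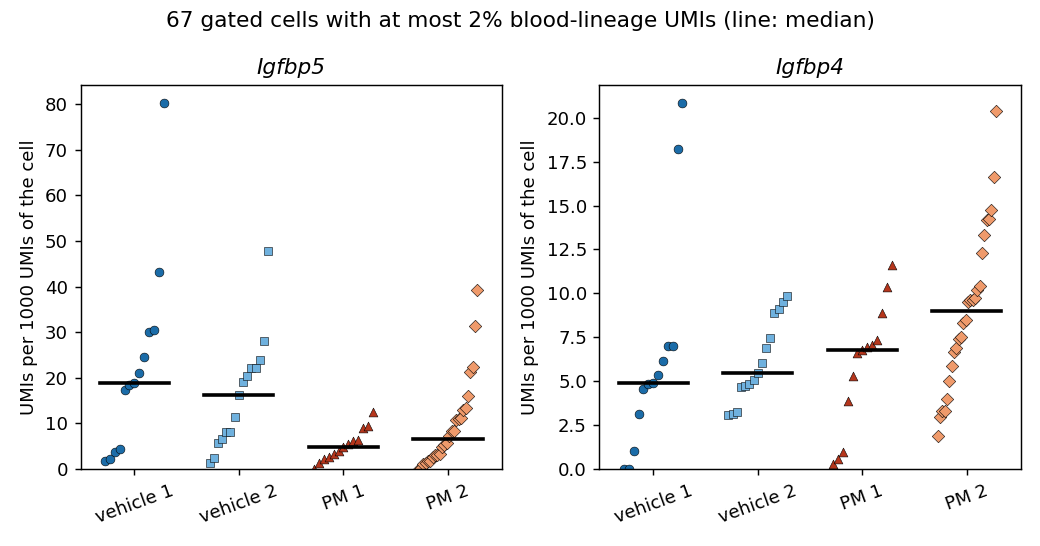
Igfbp5 and Igfbp4 in single low-blood cells, as UMIs per 1000 UMIs of the cell (y axis), by library (x axis), with each library's median marked. The Igfbp5 medians are 18.8 and 16.1 with vehicle and 4.91 and 6.48 with PM, and the Igfbp4 medians lie between 4.88 and 8.99.

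The other falls are grouped here after their values were seen, and no list of secreted proteins was tested. Ccn5, a matrix protein of the CCN family, gave 13, 13, 0 and 3 UMIs, or 416, 203, 0 and 20.7 CPM (log2 fold change -4.25 ± 0.78, adjusted p = 0.00547, edgeR). The protease inhibitor genes Serpina3n, at 416, 234, 32.4 and 41.3 CPM, and Serpina3c, at 192, 343, 21.6 and 27.6 CPM, fell by 2.84 and 3.32 on the log2 scale. Igfbp3 stood at 416, 484, 130 and 89.6 CPM (log2 fold change -1.93) and Sulf1, a sulfatase that trims heparan sulfate, at 192, 375, 64.9 and 27.6 CPM (-2.67). P4ha1, an enzyme of collagen maturation, fell by 2.05. Their calls depended on the setting. Over the alternatives in which each could be tested Ccn5 was called in 13 of 16, Serpina3n in 11 of 16, Serpina3c in 10 of 14, Sulf1 in 9 of 14, Igfbp3 in 6 of 16 and P4ha1 in 2 of 6. These are counts of few molecules: Serpina3n had 3 and 6 UMIs in the PM libraries and Sulf1 6 and 4, of which 5 in PM 1 were in a single cell.

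Some genes of transcription and signalling fell. Epas1 (HIF-2 alpha), a transcription factor of the oxygen response, stood at 1794, 1186, 292 and 234 CPM (log2 fold change -2.32 ± 0.56 SE, adjusted p = 0.0243, edgeR). Nr1d1 (REV-ERB alpha), a repressor of the circadian clock, stood at 320, 234, 10.8 and 41.3 CPM (log2 fold change -3.03, adjusted p = 0.00977, edgeR), but was not called in the low-blood cells (-2.08, adjusted p = 0.996, edgeR). Its relative Nr1d2 was at 224, 187, 54.1 and 34.4 CPM (-2.08, adjusted p = 0.0556, edgeR, not called). S1pr3, a sphingosine 1-phosphate receptor, was at 352, 343, 32.4 and 89.6 CPM (-2.27), and Camk2n1, an inhibitor of CaM kinase II, fell by 3.02. Epas1 was called in 11 of 16 alternatives, Nr1d1 in 10 of 16, S1pr3 in 8 of 16 and Camk2n1 in 8 of 15. Like Nr1d1, the genes Epas1, S1pr3 and Camk2n1 were not called in the low-blood cells.

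The remaining falls were genes of macrophages or of many cell types. Ctss (cathepsin S), C1qa and Mpeg1 are macrophage genes, and C1qa gave 128, 577, 21.6 and 20.7 CPM. Blvrb acts in haem breakdown, and 5 of its 6 UMIs in vehicle 1 lay in the deepest cell with the erythroid RNA. Gga1, AW112010 and Uhrf2 complete the 18. Of the 18, 9 could be tested in the low-blood cells. Both PM libraries lay below both vehicle libraries there for 9 of the 9, beside 13.2% of all genes tested there, but the 18 were chosen for falling in sums that include these cells, so this is not separate evidence. All 9 were negative and 7 had an unadjusted p under 0.05 by edgeR: the adjusted p was 0.472 for Ccn5, 0.592 for Serpina3n, 0.753 for Igfbp3, Igfbp5 and S1pr3, 0.840 for Epas1, 0.910 for Camk2n1, and 0.996 for Nr1d1 and AW112010.

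Calls in the gene groups of the niche are given beside 4.37% of all genes tested that were called, 3.14% higher and 1.23% lower. Of 20 tested identity genes 0 rose and 1 fell (Igfbp5), with a median log2 fold change of -0.62 over all gated cells and 0.04 in the low-blood cells, beside -0.02 and -0.08 for all genes. Of 15 tested niche ligands 0 rose and 0 fell, with medians of -0.47 and 0.36. Gas6 was at 1826, 3246, 1589 and 1819 CPM and Csf1 at 320, 640, 422 and 406 CPM. Of 25 matrix genes 0 rose and P4ha1 fell, with medians of -0.76 and 0.11, and of 18 receptor genes and 12 transcription factor genes 0 were called (Epas1 and S1pr3, which fell, are in neither list). Among 7 genes of the insulin-like growth factor group 2 fell, Igfbp3 and Igfbp5. Each of these medians was below that of all genes over all 87 cells, and all but that of the receptors (-0.10 beside -0.08) was above it in the low-blood cells. The medians of the low-blood cells rest on fewer matrix (22), receptor (13) and transcription factor (10) genes. The PM sums of the 87 cells hold 45.9% and 60.8% of UMIs from cells rich in blood RNA, against 1.61% and 24.1% with vehicle.

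Of 5 bone and 3 fat genes with enough UMIs to be tested 0 were called. Ibsp had a log2 fold change of -1.60 over all gated cells (adjusted p = 0.139, edgeR), was negative in 16 of 16 alternatives (-2.57 to -1.05) and was called in 3 of them, without vehicle 1, without vehicle 2 and without the deepest cells. It stood at 2572, 3784, 1978 and 1231 CPM in the low-blood cells (-1.05, adjusted p = 0.996, edgeR) and Lpl at 911, 1296, 2278 and 4009 CPM (1.42, adjusted p = 0.910, edgeR). Interferon genes, of interest because PM was studied for its effect on immunity, were not called in 16 of 16 tested. Their median was -0.30, and 0.10 over the 12 tested in the low-blood cells. The antigen presentation gene B2m was at 2786, 4354, 2346 and 2880 CPM. Isg15 had 0, 5, 2 and 5 UMIs, Cxcl10 0, 2, 0 and 1, and Ccl7 0 in all libraries, all too few to be tested. Of 10 inflammatory genes 1 rose (Lcn2), of 12 immediate early and heat shock genes 1 rose (Ier2), of 3 clock genes 1 fell (Nr1d1), single calls beside 3.14% of all genes tested that rose and 1.23% that fell, and of 5 cell cycle genes and 13 secretory pathway genes 0 were called. Of 11 histone deacetylase genes, among them the class I and IIb targets of the drug, only 1 had enough UMIs to be tested. It was not called. The most abundant was Hdac7, of class IIa, at 192, 78.0, 173 and 103 CPM.

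Whether PM acted differently on the gated cells than on the rest of the marrow was tested as the difference between both effects. Over all gated cells 64 of 14539 genes (0.44%) were called, 55 (0.378%) with the higher change in gated cells and 9 (0.0619%) with the lower, and in the low-blood cells 0 were called by edgeR (255 at an unadjusted p under 0.05). Leaving out vehicle 2, PM 1 or PM 2 gave 98, 0 and 1 calls. The genes with the smallest p were Ngp, Ltf, Camp and Lcn2. The falls in the stromal genes named above were not called as different: for Igfbp5 the difference was -1.87 ± 0.68 (SE) on the log2 scale with an adjusted p of 0.403 (edgeR), against other cells in which it lay at 0.966 to 1.92 CPM.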

How the data were processed

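Bone marrow depleted of red cells was run on the 10x Chromium 3' kit as 4 libraries (2 vehicle, 2 PM). The deposited values are whole-number UMI counts per gene and barcode, made by the authors with Cell Ranger 6.0.1 per the file headers, which calls cells and aligns with STAR. The submitters' processing notes name GRCm39 and the study's methods GRCm38, so no coordinates are given: 32235 of 32285 feature identifiers (99.8%) occur in GENCODE M21, an annotation of GRCm38. Levels are 3' tag counts and are not scaled by gene length.

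Cells were gated as stated above and counts were summed over the gated cells, and over the other kept cells, of each library. Sums were tested with edgeR 4.0.16 in R 4.3.3 (TMM, filterByExpr, robust quasi-likelihood F-test, Benjamini-Hochberg adjustment), with calls at an adjusted p under 0.05 and an absolute log2 fold change over 0.5, and the fits were tested on simulated data. The 8 gate genes were left out of all counts of calls. DESeq2 1.42.0, other scalings, no filter on low counts, other gates, stricter quality limits, each library left out, and a replicate block were alternatives. Doublets were not removed in the main results. The automatic threshold of Scrublet (scanpy 1.11.5) marked 0.0108%, 1.51%, 5.51% and 0% of the kept cells of vehicle 1, vehicle 2, PM 1 and PM 2, so in place of it the highest scores were taken at 0.8% per 1000 cells of a library. Removing the deepest cell of each library, and combining the removal of cells over 2% blood-list UMIs with other settings, were chosen after seeing the data. P-values of PM against vehicle rest on the spread between the 2 libraries of a group, which the study gives as 2 mice. Those of gated against other cells, and of the difference of the PM effect, rest on how the ratio of gated to other cells varied between libraries.

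Genes were named by rule: gate and identity genes, the 15 genes with the highest ratio to other cells in their lowest library (at least 50 CPM in each library), the 10 largest called rises and falls whose mean CPM reached 20 and whose sign was the same in 4 of 4 vehicle and PM pairs, and the most significant differences of the PM effect. Some genes that met these rules are not reported here. Members of the lists given, further called genes and genes at 0 were named after their values were seen. The members, gate and gene lists were chosen with earlier results of these data known.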

Additional observations from a re-analysis of the deposited data

Results flagged for a closer look

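The PM effect differed between the gated and the other kept cells by the test of the difference itself for 64 genes, and the 10 with the smallest p are given, all with a higher change in the gated cells. On the log2 scale the difference was 6.38 for Ngp, 6.28 for Ltf, 5.64 for Camp, 5.52 for Lcn2, 6.16 for Chil3, 5.28 for Wfdc21, 4.75 for S100a8, 4.47 for Anxa1, 4.40 for Ifitm6 and 4.03 for S100a9. All are genes of neutrophils or other myeloid cells, or high in them. In the 67 cells with at most 2% blood-list UMIs, a limit that itself uses Ngp, Ltf, Camp, Lcn2, S100a8 and S100a9, the differences were 0.849, 0.601, 0.493, 0.729, 1.96, 1.10, 0.493, 1.99, -0.54 and 0.291 in that order, and 0 were called by edgeR (255 of all genes had an unadjusted p under 0.05). The neutrophil list held 141541 and 115609 CPM of the gated UMIs in PM 1 and PM 2 against 4356 and 13515 in vehicle 1 and vehicle 2, while in the other kept cells it held 169093 to 202698 CPM in all 4 libraries. With vehicle 2 left out the count was 98, with PM 1 left out 0 and with PM 2 left out 1.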

How the results depend on the processing

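Rises and falls with PM depended on the cells taken. In place of the 46 rises and 18 falls, DESeq2 gave 28 and 5 (26 and 4 shared with them), removal of Scrublet doublets 23 and 7 (23 and 6 shared), a gate of at least 3 Cxcl12 UMIs 12 and 0, and removal of each library's deepest cell 106 and 40 (40 and 12 shared). Rises were 29 at 500 genes and 10% mitochondrial UMIs and 30 at 10 Cxcl12 UMIs. Falls were 34 with library size only and 37 with RLE. Leaving out a library gave 24 to 122 rises (113 without vehicle 1, 122 without vehicle 2, 24 without PM 1, 26 without PM 2) and 3 to 79 falls (79, 31, 3 and 4), in fits where the lone library is assumed to vary like the others. Without cells over 2% blood-list UMIs the counts were 0 and 0, also with DESeq2, library size only, RLE or the replicate block, 0 and 2 with no filter on low counts, and 0 to 4 and 0 to 2 with a library left out. Depth limits these sums, which hold 31223 to 145162 UMIs a library. Against other cells 1113 genes were lower, but 433 with DESeq2, 390 with library size only, 2046 without cells over 2% blood-list UMIs and 358 to 892 with a library left out, while the 1237 higher stayed between 898 and 1462. The 64 differences of the PM effect became 18 without Scrublet doublets, 32 at 10 Cxcl12 UMIs, 0 without cells over 2% blood-list UMIs and 0 to 98 with a library left out. The difference in share, 0.0864 percentage points, ran from -0.0423 (without PM 2, reversed) to 0.215 with a library left out. The cause of these changes was not tested beyond the settings' own construction.

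Among 40 named genes 11 values reversed: Ms4a3 at 3 Cxcl12 UMIs (-0.20), S100a8 (-0.055), S100a9 (-0.062; both are blood-list genes) and Gas6 (0.25) without cells over 2% blood-list UMIs, Gas6 with a library left out (-0.77 to 0.22), Lpl under the stricter quality limits (-0.10), and Igfbp4 with library size only (-0.11), with a library left out (-0.086 without vehicle 1, -0.0030 without PM 2, up to 0.42), under the stricter limits (-0.22) and at 10 Cxcl12 UMIs (-0.021). Of the others, 423 were on the same side of the threshold, 106 lost the call, 5 gained it and 95 could not be tested.

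The replicate numbers 1 and 2 are not stated to mark a shared animal, batch or day, and same-numbered libraries deviated together with a correlation of 0.0317 over genes (0.430 without cells over 2% blood-list UMIs), and since 2 pairs of unstated origin cannot show a pairing, the numbers were taken as names only. With the replicate block 37 genes were called higher and 10 lower, and Igfbp5 had an adjusted p of 0.181 (edgeR).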

Other observations

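In the 67 cells with at most 2% blood-list UMIs 40 of 783 genes had an unadjusted p under 0.05 by edgeR for PM against vehicle, and 0 had an adjusted p under 0.05. A share of about 0.05 would be expected to have such an unadjusted p with no difference in any gene. Toward higher levels with PM were Bmp4, a bone morphogenetic protein (log2 fold change 1.73, adjusted p = 0.592 by edgeR), Angpt1 (1.77, 0.753) and Lpl (1.42, 0.910). Bmp4 was at 32.6, 309, 480 and 844 CPM in vehicle 1, vehicle 2, PM 1 and PM 2 of these cells, and Angpt1 at 65.1, 103, 320 and 317 CPM. Over all gated cells Angpt1 gave only 2, 6, 16 and 20 UMIs. Both PM libraries lay above both vehicle libraries for Bmp4, Angpt1 and Lpl, as for 14.8% of all genes tested there. The genes named here were picked after their values were seen. Others in both directions had a smaller unadjusted p by edgeR than Angpt1 and Lpl, such as Adamts5 (log2 fold change 1.93) and Igkc (-1.66). Toward lower levels were Hmox1 (haem oxygenase, -2.02, adjusted p = 0.472 by edgeR) and Mt1 (metallothionein, -2.10, 0.592). Of the 16 Mt1 UMIs in the gated cells of vehicle 1, 11 lay in its deepest cell.

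The transcript Gm42418, which overlaps ribosomal RNA, took 55.4, 59.8, 25.2 and 28.9 of 1000 UMIs of the gated cells in vehicle 1, vehicle 2, PM 1 and PM 2, and 55.1, 65.2, 35.6 and 52.9 in the low-blood cells. It was lower in both PM libraries than in both vehicle libraries, as were the stromal genes that fell. So were 26.5% of all genes tested over all gated cells and 13.2% in the low-blood cells. The part of Gm42418 in the falls was not tested.

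Of all genes tested 8.51% were called higher in the gated than in the other kept cells. Genes linked to glucocorticoids were called higher in the gated cells than in other kept cells for Klf9, Errfi1, Pdk4 and Sult1a1, 4 of 15 tested, and lower for Dusp1. Of the clock genes 5 of 16 were called higher than in other cells: Per3, Nr1d1, Nr1d2, Dbp and Tef. The clock list summed to 1121, 1249, 313 and 482 CPM in the gated cells and to 1107, 1234, 400 and 791 CPM in the low-blood cells, against 171 to 212 CPM in the other kept cells. The sums were lower in both PM libraries, as were 26.5% of single genes tested over all gated cells and 13.2% in the low-blood cells. With PM only Nr1d1 of 3 tested clock genes was called, and 0 of the 1 tested in the low-blood cells.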
